A study of Mus musculus with 6 samples.

Results

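The genes described here are 10 cytokine and receptor genes of the interleukin-6 (IL-6) family and the colony-stimulating factor (CSF) system: the ligand genes Il6, Lif, Osm, Csf1 and Csf3, and the receptor genes Il6st, Il6ra, Csf1r, Csf2ra and Csf3r. They were chosen by symbol, and all 10 were found among the 46095 genes of the count table and passed the filter on low counts. RNA sequencing compared bone marrow-derived macrophages of wild-type C57BL/6 mice (WT, 3 libraries) with those of Cd226-/- mice on the same strain label (3 libraries), both at an age of 56 days. Cd226 encodes an activating adhesion receptor, and the labels do not say how the allele was made. All 6 cultures had M-CSF at 20 ng/ml for 7 days and then IFN-γ at 20 ng/ml with LPS at 100 ng/ml for 24 h, so no unstimulated culture is compared here. M-CSF is the protein that Csf1 encodes and the ligand of the receptor that Csf1r encodes, so this ligand was also supplied to the cells. The labels do not say whether replicates are separate mice or cultures, and p-values therefore measure only the spread between these libraries, which may be technical.

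IL-6, leukemia inhibitory factor (LIF, from Lif) and oncostatin M (from Osm) are cytokines that signal through a shared receptor chain, gp130, encoded by Il6st, with a specific partner such as the IL-6 receptor chain of Il6ra. Binding activates Janus kinases and the transcription factor STAT3, which in turn induces the feedback inhibitor Socs3. The colony-stimulating factors steer the myeloid lineages: M-CSF (Csf1) acts on the receptor tyrosine kinase of Csf1r in macrophages, G-CSF (Csf3) on the receptor of Csf3r in neutrophils and monocytes, and GM-CSF on the chain of Csf2ra paired with the beta common chain. LPS is a strong inducer of Il6 and Csf3 in macrophages.

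Total counts were 16838527 to 21658061 per library. The macrophage identity of the cultures was visible in 8 macrophage markers. Their summed level was 16600 to 18500 CPM (counts scaled by library size) in WT and 18100 to 18900 CPM in Cd226-/- libraries. Most of that sum came from Lyz2, with means of 10650 CPM in WT and 11829 CPM in Cd226-/-. For the targeted gene, 5, 17 and 23 reads were counted in the WT libraries and 11, 10 and 8 in the Cd226-/- libraries, which is too low in both genotypes to check the labels. Cd226-/- replicate 1 stood apart from replicates 2 and 3 on the second principal component (14.9% of variance). Replicates 2 and 3 carried hepatocyte transcripts at a summed 21.2 CPM each over 7 markers, against at most 0.329 CPM in each other library. Over all genes, 4086 of the 13215 tested (30.9%) were called by the quasi-likelihood test of edgeR (adjusted p under 0.05), 2130 higher and 1956 lower in Cd226-/-. With libraries scaled by total count alone the split was 1773 higher and 2764 lower.

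The regulatory sequence before the start of Il6 and Csf1, 2 of the 3 members that fell, is shown because LPS-induced cytokine genes are known for NF-kB, C/EBP and AP-1 sites there. Promoter entries of RefSeq on GRCm38.p6 matched 7 of the 10 symbols, all but Osm, Csf3 and Csf1r. The 250 bases upstream of the annotated start were searched on both strands, and capitals mark the matches.
Il6, chr5:30012864-30013113, plus strand: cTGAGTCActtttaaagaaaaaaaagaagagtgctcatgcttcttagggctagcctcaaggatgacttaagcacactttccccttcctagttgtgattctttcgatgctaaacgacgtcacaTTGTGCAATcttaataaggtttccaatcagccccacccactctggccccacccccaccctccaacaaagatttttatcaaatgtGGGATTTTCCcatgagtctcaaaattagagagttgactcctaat
Csf1, chr3:107760470-107760719, minus strand: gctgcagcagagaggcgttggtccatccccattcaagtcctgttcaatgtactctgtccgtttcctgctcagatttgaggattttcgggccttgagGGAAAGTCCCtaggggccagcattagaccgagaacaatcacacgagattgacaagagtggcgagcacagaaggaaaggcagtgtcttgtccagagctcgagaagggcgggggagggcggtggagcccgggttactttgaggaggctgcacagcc

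The Il6 window held an AP-1 match (TGANTCA), a C/EBP match (TTNNGCAAT) and, 44 to 35 bases before the start, an NF-kB match (GGG, any 2 bases and TTTCC). The Csf1 window held 1 NF-kB match, on the opposite strand, 154 to 145 bases before the start. Of all 32851 promoter windows of the same length, 1.41% held the NF-kB letters, 1.93% the C/EBP letters and 6.75% the AP-1 letters. Lif had an AP-1 match and neither of the other 2. No window of the 7 members held the STAT letters TTCNNNGAA (7.02% of all windows) or the TATA box letters TATAAA (12.4%), and the CRE letters TGACGTCA (1.55%) were found in Csf2ra. The short letters GAGGAA, a core bound by the macrophage factor PU.1, occurred in the windows of 3 receptor genes, Il6ra, Csf2ra and Csf3r, and in 23.3% of all windows. The stretch around the match in Csf3r, the member that rose, is given with those letters in capitals; GENCODE M21 starts the gene just upstream of it, at 126024550.
Csf3r, chr4:126024561-126024590, plus strand: cctccttcctgaGAGGAAggggctgtctat

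The 3′ ends of the transcripts separated ligands from receptors. The AU-rich core TATTTAT, a site type bound by mRNA-destabilising proteins such as that of Zfp36, was counted in the longest annotated 3′ untranslated region of each gene (GENCODE M21, GRCm38). Every ligand gene of the list held at least 1 core and none of the 5 receptor genes held one, although the untranslated regions of Il6st and Il6ra were the longest of the 10 at 5644 and 7105 bases. Of 11413 tested genes with such a region, 30.6% held at least 1 core and 10.9% at least 2. Lif held 5, Osm 3, Csf3 2, and Il6 and Csf1 1 each. The search was added after the data were seen, and the 28 bases that hold the most cores are given for each ligand, with the cores in capitals.
Lif: tgtcTATTTATtactatgtccTATTTAT
Osm: ccgttttaTATTTATaaggccTATTTAT
Csf3: agttTATTTATctctatttaaTATTTAT
Il6: tttaagttaatttatgattgaTATTTAT
Csf1: atgccccccacatactgccacTATTTAT

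Of the 10 members, 1 rose (Csf3r) and 3 fell (Il6, Csf1 and Csf1r) in Cd226-/- macrophages, and 6 did not pass the test. That is 4 of 10 beside 30.9% of all tested genes called in either direction, with 16.1% called higher and 14.8% called lower. The median log2 fold change was -0.17 over the members and -0.0045 over all tested genes. In 5 members the 3 Cd226-/- libraries did not overlap the 3 WT libraries, the 4 called genes and Csf2ra, and 44.3% of all tested genes had no such overlap.

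**Figure D1:**
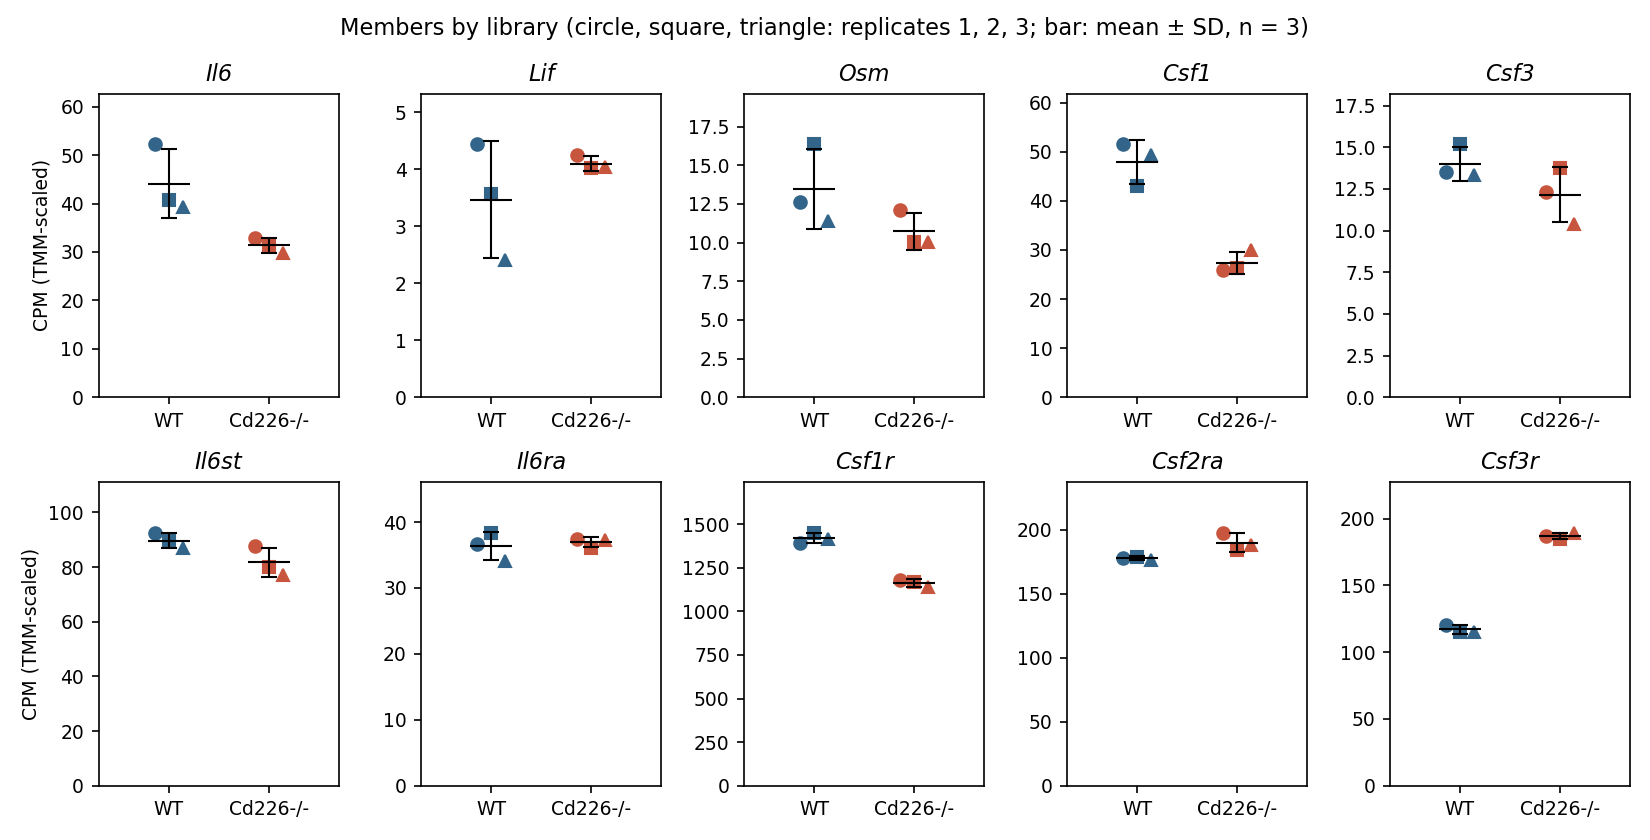
CPM on TMM-scaled library sizes (vertical axis, from 0) of each member in the 3 WT and 3 Cd226-/- libraries, with the mean and SD of each genotype as bars. Il6, Csf1 and Csf1r lie lower and Csf3r higher in all 3 Cd226-/- libraries, and the genotypes overlap in Lif, Osm, Csf3, Il6st and Il6ra.

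Among the ligands, Csf1 changed most. This gene (chromosome 3, 107741048 to 107760469, GRCm38) had 51.6, 43.0 and 49.4 CPM in WT replicates 1 to 3 and 25.9, 26.3 and 30.01 CPM in the Cd226-/- replicates. Every Cd226-/- library lay well below every WT library. The means were 48.0 ± 4.47 and 27.4 ± 2.26 CPM (SD, n = 3), and the log2 fold change was -0.81 ± 0.082 (SE; edgeR adjusted p = 1.24e-07), a level 0.571 times that of WT. The call held in all 15 alternative settings, with log2 fold changes from -0.88 to -0.76.

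Il6 (chromosome 5, 30013114 to 30019981) had 52.3, 40.7 and 39.3 CPM in WT and 32.9, 31.5 and 29.8 CPM in Cd226-/-. The WT libraries were spread wider than the Cd226-/- libraries, with replicate 1 the highest, but the lowest WT library was still above the highest Cd226-/- library. The mean went from 44.1 ± 7.13 to 31.4 ± 1.53 CPM (SD, n = 3), with log2 fold change -0.49 ± 0.096 (SE; edgeR adjusted p = 8.47e-04). Without WT replicate 1 the change was smaller, at -0.35, the end of its range over all alternatives nearest to 0. Its adjusted p over all alternatives reached at most 0.0478, with replicate 1 as the only Cd226-/- library.

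Stromal cells also make Il6, Csf1 and Lif, and in bulk samples such as these fewer cells of a type and less RNA per cell cannot be told apart. Of 7 stromal markers 6 were tested and 5 rose, beside 16.1% of all tested genes called higher. The sum over the 7 was 498 to 578 CPM in WT and 769 to 801 CPM in Cd226-/-. Dcn did not pass, with means of 153 and 144 CPM (log2 fold change -0.092, edgeR adjusted p = 0.304). Lum had no more than 7 counts in any library. The part of stromal cells in the levels of Il6, Csf1 and Lif was not tested.

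The remaining 3 ligand genes did not pass. Osm (chromosome 11, 4236420 to 4241026) had 12.6, 16.4 and 11.4 CPM in WT and 12.1, 10.01 and 10.02 CPM in Cd226-/-. Cd226-/- replicate 1 lay within the WT range and the other 2 below it. The log2 fold change was -0.32 with a 95% interval of -0.60 to -0.036 before adjustment (edgeR adjusted p = 0.0805). Osm was called lower without Cd226-/- replicate 1 (adjusted p = 0.0265), without WT replicate 3 (0.0359), with no filter (0.0432) and with libraries scaled by total count alone (0.0363). The log2 fold change was -0.16 without WT replicate 2, and it was -0.14 when Cd226-/- was represented by replicate 1 alone.

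Csf3, the G-CSF gene (chromosome 11, 98701263 to 98703629), had 13.5, 15.2 and 13.3 CPM in WT and 12.3, 13.7 and 10.4 CPM in Cd226-/-. Cd226-/- replicate 2 lay inside the WT range. The log2 fold change was -0.21 (95% interval -0.45 to 0.043; edgeR adjusted p = 0.204), and -0.10 without Cd226-/- replicate 3. Lif (chromosome 11, 4257557 to 4272514) was the least abundant member; its counts were 81, 61 and 53 for WT and 77, 67 and 74 for Cd226-/-. In CPM these were 4.44, 3.56 and 2.40 against 4.24, 4.02 and 4.03, all 3 Cd226-/- values falling inside the WT range. Its log2 fold change was 0.25 with the widest interval of the members, -0.22 to 0.72 (edgeR adjusted p = 0.432). At this depth and spread, no change and any change within that interval are compatible with the counts. The value was 0.030 without WT replicate 3 and 0.47 without WT replicate 1.

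Among the receptors, Csf3r (chromosome 4, 126024550 to 126044440) rose. It had 121, 115 and 115 CPM in WT and 187, 185 and 189.6 CPM in Cd226-/-. Libraries within a genotype were nearly level and the genotypes lay far apart. The means were 117 ± 3.18 and 187 ± 2.49 CPM (SD, n = 3), a 1.60-fold difference (log2 fold change 0.68 ± 0.049 (SE); edgeR adjusted p = 8.80e-10). The call held in all 15 alternatives, from 0.62 to 0.70.

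Since Csf3r also marks neutrophils and monocytes, markers of both were read in the same libraries. Of 10 neutrophil markers 3 were tested and 0 called by edgeR or limma-voom. Mmp8 was lower at an unadjusted p under 0.05 and was called by DESeq2. The summed level of the 10 was 71.6 to 89.2 CPM in WT and 73.2 to 80.8 CPM in Cd226-/-. Most of it came from S100a8 (means of 55.2 and 58.8 CPM) and Mmp8 (24.7 and 17.0 CPM). S100a9 had at most 5 counts in any library. The granule gene Mpo had 0 counts in all 3 Cd226-/- libraries, as did Elane, and Cxcr2 had at most 2 counts in any library. No neutrophil marker was at 0 in every library. Of 4 monocyte markers 3 rose, beside 16.1% of all tested genes called higher. Chil3 did not pass, with means of 39.1 and 42.2 CPM (edgeR adjusted p = 0.715). The summed level of the 4 was 109 to 115 CPM in WT and 299 to 327 CPM in Cd226-/-. Most of this rise was in Ly6c2, with means of 30.2 and 205 CPM. The part of monocytes in the rise of Csf3r was not tested.

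Csf1r, the M-CSF receptor gene that maintains macrophages (chromosome 18, the chromosome that also carries Cd226), was the most abundant member. Its levels were 1393, 1452 and 1416 CPM in WT and 1179, 1171 and 1139.7 CPM in Cd226-/-. The genotypes did not overlap, and the spread within each was small. The means were 1420.4 ± 29.5 and 1163 ± 20.8 CPM (SD, n = 3), with log2 fold change -0.29 ± 0.048 (SE; edgeR adjusted p = 8.81e-05), 0.819 times the WT level. Its last exon overlaps Hmgxb3 on the opposite strand, which had 4704 counts over all 6 libraries, and without a stated strand setting reads of the overlap cannot be told apart. The 8 macrophage markers did not move one way: 4 rose, among them Adgre1 (log2 fold change 0.26) and Cd68 (0.39), and 3 fell, among them Itgam (-0.30) and Cd14 (-0.37).

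Csf2ra, the GM-CSF receptor alpha chain (chromosome 19, 61223957 to 61228429), had 178, 179 and 177 CPM in WT and 198, 184 and 188 CPM in Cd226-/-. The Cd226-/- libraries all lay above the WT libraries, but the difference did not pass (log2 fold change 0.095, 95% interval -0.0062 to 0.20; edgeR adjusted p = 0.147). Il6st, the gp130 gene (chromosome 13, 112464070 to 112510086), had 92.6, 89.5 and 87.0 CPM in WT and 87.6, 80.2 and 77.2 CPM in Cd226-/-. Replicate 1 of Cd226-/- lay within the WT range and the other 2 below it, as for Osm. The log2 fold change was -0.13 (95% interval -0.26 to -0.014 before adjustment; edgeR adjusted p = 0.0841). Il6st was called lower without Cd226-/- replicate 1 (adjusted p = 0.00761) and when scaled by total count alone (0.0111), and its log2 fold change was -0.027 with replicate 1 as the only Cd226-/- library.

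Il6ra (chromosome 3, 89864059 to 89913196) was the steadiest receptor gene between genotypes. It had 36.7, 38.4 and 34.1 CPM in WT and 37.5, 36.1 and 37.3 CPM in Cd226-/-. The log2 fold change of 0.026 had a 95% interval of -0.12 to 0.18 (edgeR adjusted p = 0.822), and its sign turned with scaling to library size alone (-0.028) and without WT replicate 3 (-0.023).

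**Figure D2:**
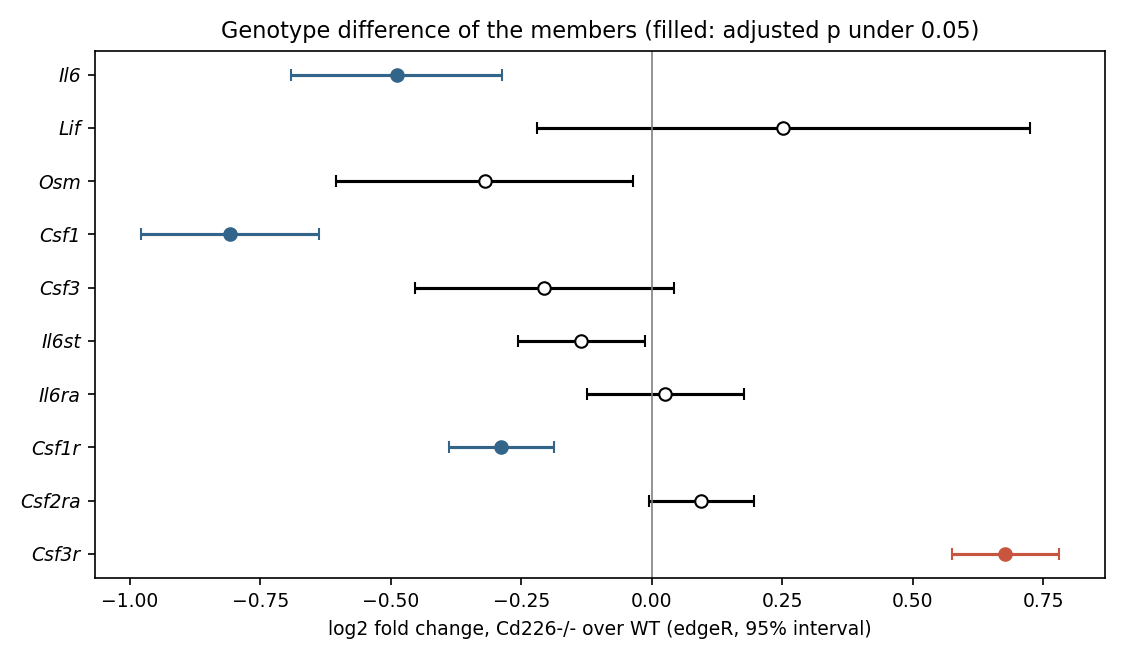
Log2 fold change of each member, Cd226-/- over WT (horizontal axis), with its unadjusted 95% interval from edgeR, filled where the adjusted p was under 0.05. Csf1, Il6 and Csf1r lie left of 0 and Csf3r right of 0, and Lif has the widest interval.

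Levels were compared between members per kb of merged exons (GENCODE M21). In WT the order from the top was Csf1r at 290.8 ± 6.03, Csf2ra at 95.7 ± 0.685, Csf3r at 33.4 ± 0.907, Il6 at 18.2 ± 2.94 and Csf1 at 10.2 ± 0.948 CPM per kb (SD, n = 3). Below them came Csf3 at 9.93 ± 0.720, Il6st at 8.18 ± 0.257, Osm at 5.92 ± 1.14, Il6ra at 4.21 ± 0.252 and Lif at 0.856 ± 0.253 CPM per kb. The 3 CSF receptors thus stood above every ligand, while both IL-6 receptor chains stood below Il6 itself. Csf1r lay at the 98.7th percentile of the tested genes with a length and Lif at the 16.3rd. Neighbours in the WT order did not overlap between libraries except for Csf1 and Csf3. In Cd226-/- Csf1, at 5.81 ± 0.479 CPM per kb, stood seventh, below Csf3 (8.61 ± 1.18) and Il6st (7.44 ± 0.489), and only the neighbours Csf3 and Il6st overlapped.

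**Figure D3:**
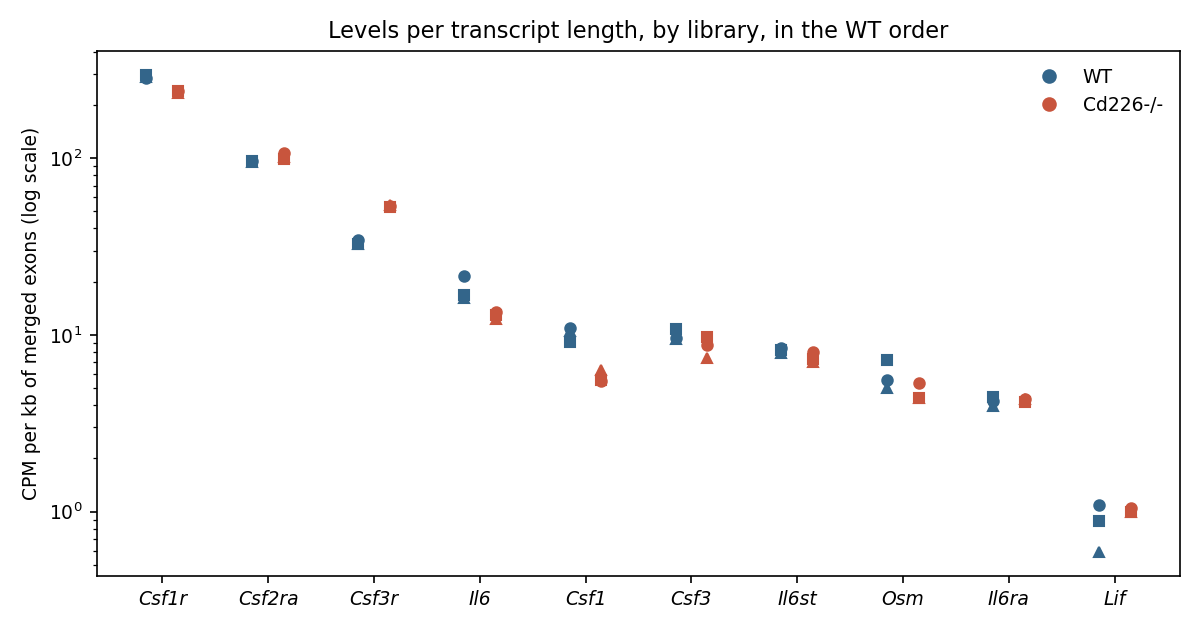
CPM per kb of merged exons (log scale) of each member in the WT and Cd226-/- libraries, in the WT order. Csf1r is highest at 290.8 CPM per kb in WT and Lif lowest at 0.856, and Csf1 drops below Csf3 and Il6st in the Cd226-/- libraries.

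To ask whether members differed from one another in their change, the ratio of counts of 2 members was taken within each library, which needs no scaling between libraries. With 3 libraries against 3 the exact two-sided permutation test cannot go below 0.1, and over the 7 ratios no Benjamini-Hochberg adjusted value fell below 0.233. Csf3 per Csf3r differed most. Its log2 ratio was -3.16, -2.92 and -3.11 in WT and -3.92, -3.75 and -4.19 in Cd226-/-, lower by 0.89 without overlap (exact p = 0.1). In the gene fits Csf3r rose by 0.68 and Csf3 had -0.21 on the same log2 scale.

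Il6 per Lif had log2 ratios of 3.56, 3.51 and 4.03 in WT and 2.95, 2.97 and 2.89 in Cd226-/-, a difference of -0.76 without overlap (exact p = 0.1). Csf1 per Csf1r had -4.76, -5.08 and -4.84 in WT and -5.51, -5.47 and -5.25 in Cd226-/-, a difference of -0.52, again without overlap (exact p = 0.1). The fall of Csf1 was thus larger than that of its receptor in these libraries, at a p that this design cannot take below 0.1. The other ratios overlapped between genotypes: Csf1 per Csf3 (difference -0.59, exact p = 0.2), Il6 per Csf3 (-0.27, 0.2), Il6ra per Il6st (0.16, 0.2) and Il6 per Osm (-0.16, 0.5). A different change of Il6 and Osm was therefore not shown, although only Il6 passed the gene test. Without WT replicate 1 the difference was -0.11 for Il6 per Csf3 and 0.0052 for Il6 per Osm.

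**Figure D4:**
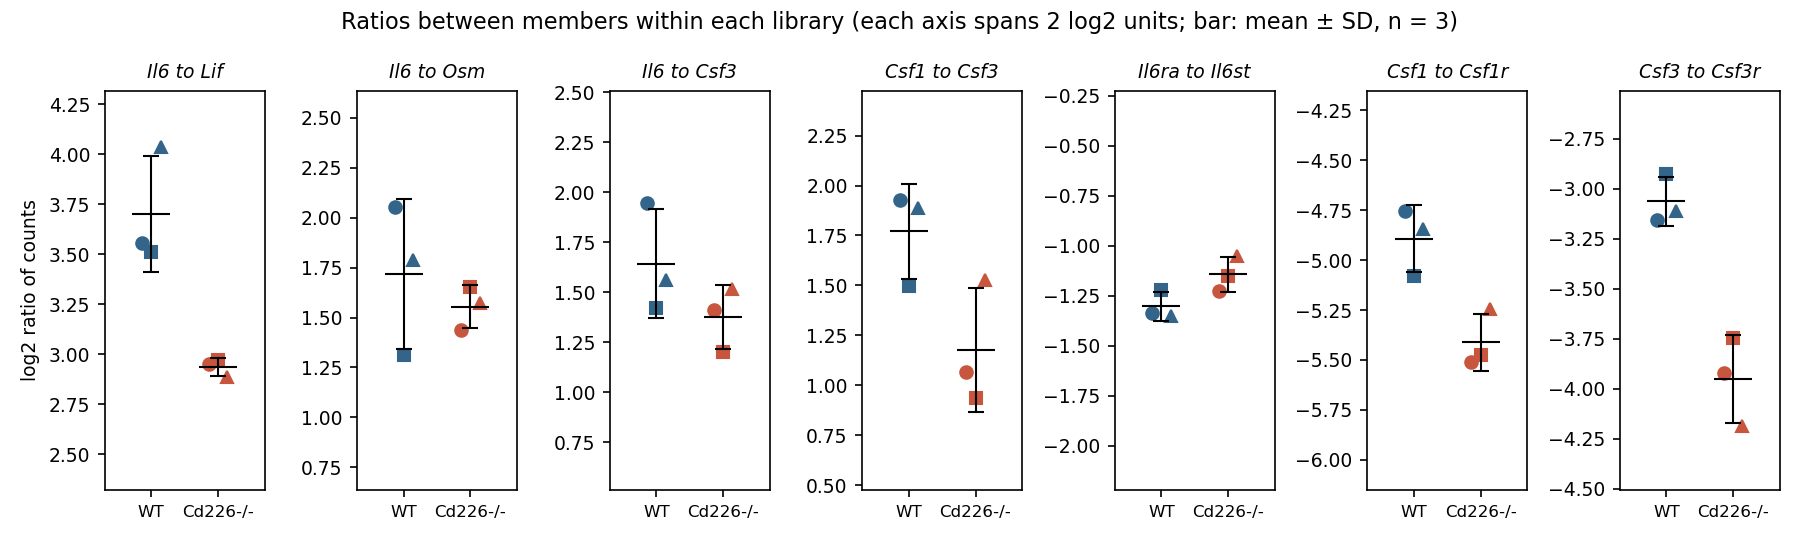
Log2 ratio of the counts of 2 members within each library (vertical axes of equal span), by genotype, with mean and SD. Il6 to Lif, Csf1 to Csf1r and Csf3 to Csf3r are lower in all 3 Cd226-/- libraries, and the genotypes overlap in the other 4 ratios.

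The other genes of these pathways were 69 in all, of which 60 were tested. Their lists were chosen with earlier results of these data known. Of the 60, 22 rose and 8 fell, beside 16.1% of all tested genes called higher and 14.8% called lower. Of 12 other IL-6 and IL-12 family genes 7 were tested: 2 rose, 1 fell and 4 did not pass, with a median log2 fold change of 0.19. Osmr, the oncostatin M receptor chain that pairs with gp130, had 32.7, 25.5 and 26.2 CPM in WT and 18.5, 18.3 and 19.9 CPM in Cd226-/-. It fell without overlap (log2 fold change -0.57 ± 0.099 (SE), edgeR adjusted p = 1.16e-04). Il27, which encodes a subunit of a cytokine that also signals through gp130, rose from 8.63 ± 1.21 to 18.5 ± 0.744 CPM (SD, n = 3; edgeR adjusted p = 2.57e-07). Its partner Ebi3 rose 1.21-fold (edgeR adjusted p = 0.0266). The call was lost without WT replicate 2 (0.0537), WT replicate 3 (0.118), Cd226-/- replicate 2 (0.139) or Cd226-/- replicate 3 (0.102), and with libraries scaled by total count alone (0.0751). With replicate 1 as the only Cd226-/- library its log2 fold change went from 0.28 to 0.099 (adjusted p = 0.668). Lifr and Il11ra1 did not pass (adjusted p = 0.0922 and 0.0685). The ligand genes Cntf, Ctf1 and Clcf1 and the receptor gene Cntfr had too few counts to be tested, Ctf1 being at 0 in every library.

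Of 8 other genes of the CSF and beta common system 4 were tested. Of these 2 rose and 1 fell, beside 16.1% higher and 14.8% lower over all tested genes. Csf2, the GM-CSF gene itself, was counted 2, 9 and 15 times in the WT libraries and 8, 3 and 0 times in the Cd226-/- libraries and was not tested. Il3ra, the IL-3 receptor alpha chain, had 16.8, 18.4 and 17.3 CPM in WT and 35.1, 31.8 and 32.7 CPM in Cd226-/-, a 1.90-fold rise (edgeR adjusted p = 2.82e-08). Il5ra, the IL-5 receptor alpha chain, rose from 0.371 ± 0.163 to 2.08 ± 0.346 CPM (SD, n = 3; edgeR adjusted p = 7.83e-05). All 5 tested B-cell markers rose in the same libraries, beside 16.1% of all tested genes called higher. Their sum went from 12.2 to 15.1 CPM in WT to 30 to 39.3 CPM in Cd226-/- (Ighm was at 0). The part of B cells in the rise of Il5ra was not tested. Of the beta chains, Csf2rb did not pass (log2 fold change -0.10, edgeR adjusted p = 0.107). Csf2rb2 fell (log2 fold change -0.27 ± 0.047 (SE), edgeR adjusted p = 1.09e-04). These 2 are near-identical neighbours, so how reads were divided between them is uncertain. The alpha chains thus differed in their calls, with Il3ra and Il5ra rising and Csf2ra not passing. The difference between these alpha chains was not tested.

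The kinases and transducers of these receptors came next. Of 15 Janus kinases, STATs and inhibitors, 7 rose, 0 fell and 8 did not pass (median log2 fold change 0.22), beside 16.1% higher and 14.8% lower over all tested genes; 0 also fell at an unadjusted p under 0.05 in edgeR, by DESeq2 and by limma-voom. Jak2, which serves the beta common and several cytokine receptors, had 408, 399.9 and 404 CPM in WT and 522, 600.2 and 614 CPM in Cd226-/- (log2 fold change 0.52 ± 0.056 (SE), edgeR adjusted p = 3.40e-07). Stat3, the main transducer of gp130, rose 1.24-fold, Jak1 1.15-fold and Jak3 1.27-fold. Stat5a and Stat5b did not pass (log2 fold changes 0.11 and 0.032). Socs3, the inhibitor that binds gp130, went from 416 ± 26.0 to 578 ± 34.6 CPM (SD, n = 3; 1.39-fold, edgeR adjusted p = 1.01e-06). Socs1 rose 1.35-fold (adjusted p = 0.00937), but not without Cd226-/- replicate 1 (0.120) or with that replicate as the only Cd226-/- library (0.222).

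Of 10 known STAT3 targets 4 rose, 1 fell and 5 did not pass, beside 16.1% higher and 14.8% lower over all tested genes. Il1rn, the IL-1 receptor antagonist, rose 2.14-fold from 673 ± 29.0 CPM to 1442 ± 88.0 CPM (SD, n = 3; edgeR adjusted p = 1.89e-12). The kinase gene Pim1 and the AP-1 gene Junb rose 1.22-fold and 1.17-fold, and Socs3 is counted here again. Il4ra, the IL-4 receptor alpha chain, fell (log2 fold change -0.29 ± 0.055 (SE), edgeR adjusted p = 3.07e-04). Bcl3, Mcl1, Bcl6, Fos and Myc did not pass.

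Of 13 regulators of Il6 transcription or mRNA, 5 rose, 2 fell and 6 did not pass (16.1% higher and 14.8% lower over all tested genes). Zc3h12a, whose product is the ribonuclease Regnase-1 that degrades Il6 mRNA, had 123, 119 and 128 CPM in WT and 98.4, 93.2 and 95.5 CPM in Cd226-/- (log2 fold change -0.37 ± 0.052 (SE), edgeR adjusted p = 1.30e-05). Arid5a, whose product stabilises Il6 mRNA, rose 1.32-fold (54.3 ± 7.39 to 71.7 ± 3.41 CPM (SD, n = 3)). Zfp36, whose product binds the AU-rich core shown above, rose 1.35-fold, and Atf3, a repressor of LPS-induced genes, 1.40-fold. The named genes for mRNA-destabilising proteins did not change in 1 direction, as Zc3h12a fell and Zfp36 rose. The part of these regulators in the fall of Il6 was not tested. Rel rose 1.26-fold, but not with replicate 1 as the only Cd226-/- library (adjusted p = 0.165). Nfkbiz, an NF-kB cofactor for Il6, fell (edgeR adjusted p = 0.0408). It missed the threshold without WT replicate 1 (0.0925), 2 (0.0849) or 3 (0.0880) or without Cd226-/- replicate 1 (0.151, log2 fold change -0.11 against -0.17) or 3 (0.0505), by DESeq2 (0.0880) and with a filter at a mean of 5 CPM (0.0521). The factors Cebpb, Rela and Nfkb1 did not pass (log2 fold changes -0.049, 0.071 and 0.084).

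Of 12 genes around Csf1r, 3 rose, 3 fell and 6 did not pass (16.1% higher and 14.8% lower over all tested genes). Cebpa, a myeloid transcription factor, had 129.8, 130.4 and 128 CPM in WT and 94.1, 75.5 and 75.8 CPM in Cd226-/- (log2 fold change -0.66 ± 0.071 (SE), edgeR adjusted p = 1.69e-06). Spi1, which encodes PU.1, and Runx1 did not pass (log2 fold changes -0.063 and 0.045). The sheddase genes fell: Adam10, which also cleaves the IL-6 receptor, went from 199.7 ± 2.39 to 140.0 ± 2.76 CPM (SD, n = 3; edgeR adjusted p = 3.99e-08), and Adam17, which releases the M-CSF and IL-6 receptors from the surface, from 396 ± 8.24 to 352 ± 2.47 CPM (adjusted p = 0.00770). Rhbdf2, which encodes a partner needed for the maturation of the Adam17 product, rose 1.17-fold. Grb2, an adaptor of the activated M-CSF receptor, rose 1.23-fold. Adam17 missed the threshold with replicate 1 as the only Cd226-/- library (0.0740). The remaining called gene, Cbl, was not called without WT replicate 1 (0.163) or 3 (0.147) or without Cd226-/- replicate 2 (0.0716) or 3 (0.0751), nor with no filter (0.0721) or scaling by total count alone (0.159, log2 fold change 0.086 against 0.14).

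**Figure D5:**
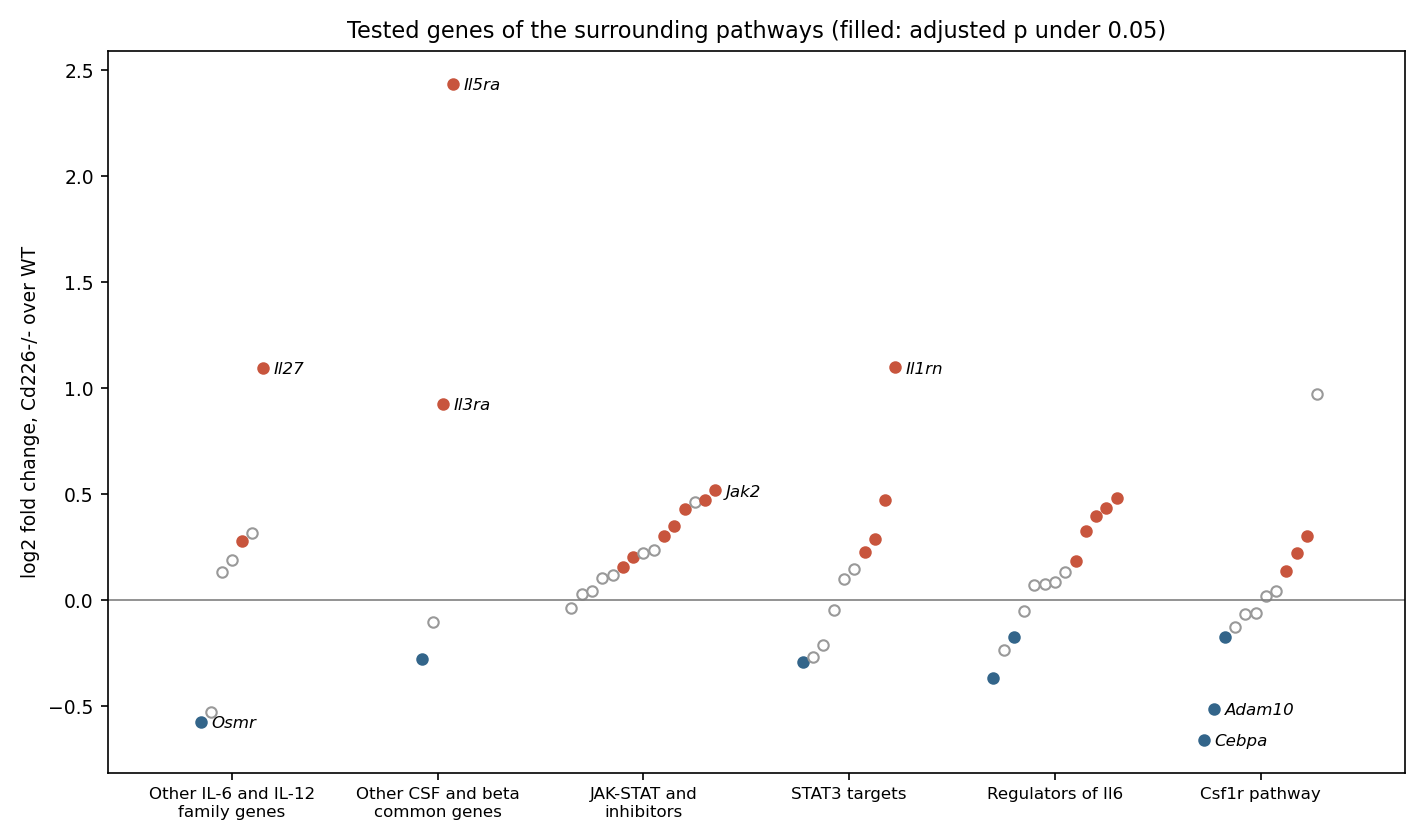
Log2 fold change, Cd226-/- over WT (vertical axis), of each tested gene in 6 lists around the members, filled where the edgeR adjusted p was under 0.05. In the JAK-STAT list all 7 called genes lie above 0, and Osmr, Cebpa and Adam10 lie lowest of the called genes.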

How the data were processed

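Gene expression was measured by RNA sequencing in 6 libraries of stimulated macrophages. The values are raw counts of reads per gene symbol, as deposited in a single table; HISAT2 and GRCm38 are named as aligner and build, per the submitters' processing notes. Which counter, annotation and strandedness were used is not given in the sources used here. Columns were assigned by library title, 0 were left unused, and 0 rows named no gene. One count was worth 0.0462 to 0.0594 CPM, and counts under 3 cannot be told from 0; such limits cover counting error only.

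The test was that of edgeR 4.0.16 (R 4.3.3): filterByExpr, TMM, robust quasi-likelihood F-test on genotype, two-sided, with Benjamini-Hochberg adjustment over 13215 genes and calls at 0.05. Standard errors are the log2 fold change over the square root of F, and intervals are 95%. CPM uses TMM-scaled library sizes. Lengths (12440 tested genes, 94.1%) are merged exons of GENCODE M21 on GRCm38. The named genes are all 10 members and, in each pathway list, up to 6 called genes by p; the 5 genes most like Il6 are in the closing section. Cell type markers and further genes that are named were picked with their values in view. Members and lists were chosen with earlier results of these data known. Replicate pairs of a genotype differed by more than counting noise (chi-square over degrees of freedom 2.17 to 7.76 for genes with at least 20 counts), so all 6 libraries were kept. The 2.17 was that of Cd226-/- replicates 2 and 3, the libraries with hepatocyte transcripts, and the other pairs had 3.79 to 7.76. Whether those 2 libraries are independent is not known, so the spread of Cd226-/- may be understated. Alternatives were DESeq2 1.42.0 size factors and Wald test, library size alone, no filter, a mean of at least 5 CPM, limma-voom (3.58.1), the replicate block, each library left out, replicate 1 as the only Cd226-/- library (the spread then comes from WT only) and an adjusted p under 0.01. In 3 sets simulated over 13215 genes, edgeR found 37.3% of genes changed 1.25-fold, 70.7% at 1.5-fold and 78.7% at 2-fold. Of its calls 6.07% were unchanged genes. Each fold change was given to 150 genes over the 3 sets, a far smaller share than the 30.9% called in the data. The shares found may therefore differ from those in the real comparison. Some genes of the lists are counted but not reported by name here.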

Additional observations from a re-analysis of the deposited data

How the results depend on the processing

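The calls of Il6, Csf1, Csf1r and Csf3r kept their direction and their side of the threshold in all 15 alternatives. The number of members called lower was 3, and 5 with libraries scaled by total count alone, where the median of all genes shifted by -0.053 on the log2 scale; it was 3 to 5 with 1 library left out, the 5 coming without Cd226-/- replicate 1. Over all genes, 1167 rather than 1956 were called lower at an adjusted p under 0.01. Il6ra turned sign when scaled by total count alone (-0.028) and ranged from -0.023 to 0.064 with 1 library left out. The log2 ratio of Il6 to Osm differed between genotypes by -0.36 to 0.0052 with 1 library left out, the upper end without WT replicate 1. The cause of these shifts was not tested. Deviations of same-numbered libraries from their group means did not correlate (0.0124, -0.0129 and 0.0121 for numbers 1 to 3). Such values cannot settle whether a number marks a shared day or animal, which the labels do not say. With the replicate block 1 member was called higher and 3 lower, and 2185 genes higher and 1952 lower over all. Depth and the spread between WT libraries together limit Lif most, at 53 to 81 counts per library. Depth also leaves Csf2 untested.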

Other observations

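The 5 tested genes most like Il6 over the 6 libraries, by Pearson correlation of log2 CPM ranked over the 8974 genes averaging 5 CPM or more, were Socs5 (0.994), Mfsd4b3 (0.992), Rdh10 (0.987), Jmjd4 (0.984) and Rer1 (0.981). Socs5, which encodes a suppressor of cytokine signalling, had 22.03, 17.5 and 16.7 CPM in WT and 15.2, 14.4 and 13.9 CPM in Cd226-/-. Like Il6 it was highest in WT replicate 1. The correlations are a description of 6 libraries that share 1 genotype difference and carry no test.

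Members varied unequally within a genotype. Lif, Osm and Il6 had coefficients of variation of 29.5%, 19.2% and 16.2% among the WT libraries, and 3.11%, 11.4% and 4.88% among the Cd226-/- libraries. The other ligand genes, Csf1 and Csf3, had 9.33% and 7.25% in WT and 8.25% and 13.7% in Cd226-/-. The 5 receptor genes ranged from 0.715% (Csf2ra) to 5.99% (Il6ra) in WT, below every ligand gene, and from 1.33% (Csf3r) to 6.57% (Il6st) in Cd226-/-, where Il6st exceeded Lif and Il6. Relative counting error is larger at low counts, and WT counts ran from 53 in Lif to 31307 in Csf1r. This error was not taken out, and the difference in spread was not tested.

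Other receptor and ligand genes of the lists near the detection limit were Il34, a second ligand of the M-CSF receptor, counted 4, 3 and 2 times in WT libraries and 7, 4 and 11 times in Cd226-/- libraries, and Il3, at 0 in every library. Counts of Il11 were 26, 28 and 39 for WT and 30, 31 and 33 for Cd226-/-, and it did not pass (edgeR adjusted p = 0.775). Counts of Il27ra were 63, 54 and 69 for WT and 28, 50 and 41 for Cd226-/-; all 3 Cd226-/- values lay lower in CPM, and the difference did not pass (log2 fold change -0.53, edgeR adjusted p = 0.130).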
